A study of Mus musculus with 12 samples.

Results

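The genes described here are 40 imprinted genes at 18 loci, of 24736 genes in the table of mouse RNA-seq values. They are the genes of a fixed list of imprinted genes that were found in the table, grouped by locus and parental allele. By what is known of the mouse, 17 of them are listed as expressed from the maternal allele and 22 from the paternal allele, in at least some tissues. Gnas is expressed from one or the other according to its isoform. Which copies were active in these cultures was not measured. All 40 were found and 37 had enough counts to be tested. The other 3, Airn, Kcnq1 and Rtl1, are given by their levels.

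Polyadenylated RNA was sequenced from cultures differentiated from male embryonic stem (ES) cells for 72 h, in 4 groups of 3 libraries, to ask how the level of SOX2 changes the response of epiblast-like cells to WNT signalling. Every culture was given bFGF at 10 ng/ml and LGK974, a blocker of WNT secretion, at 5 µM. EpiLC (epiblast-like cells) were wild type and had nothing further. CEpiLC (caudal epiblast-like cells) were wild type and were exposed from day 2 to day 3 to CHIR99021, which inhibits GSK3 and so activates WNT signalling. SOX2-OFF and SOX2-ON were exposed to CHIR99021 in that way too, but derive from SOX2 TetON cells. These are Sox2-/- and carry a doxycycline-dependent Sox2 transgene at the Hprt locus, so that they depend on doxycycline for SOX2. SOX2-OFF had doxycycline withdrawn and SOX2-ON received it at 1 µg/ml. The wild-type cells were the parental line, which carries the rtTA activator at Rosa26 that all 4 groups therefore share. The SOX2 TetON line was picked as a clone after passage in 2i medium, and the ES cells of both lines were kept on fibroblast feeders that were removed by preplating. A difference between a SOX2 TetON group and CEpiLC thus cannot be told apart from a difference between 2 lines, and SOX2-ON differs from SOX2-OFF in doxycycline as well as in SOX2.

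An imprinted gene is transcribed mainly from the copy inherited from 1 parent. The choice is set by DNA methylation laid down in the egg or the sperm at a control region, and this mark is kept through the wave of demethylation after fertilisation. Many loci pair a maternal gene with a paternal one in a single switch. At H19/Igf2 the unmethylated maternal copy transcribes H19 and the methylated paternal copy transcribes Igf2, and at the Kcnq1 domain transcription of the long RNA Kcnq1ot1 on the paternal copy goes with silence of a row of genes there. Several paternal genes promote growth of the fetus and placenta and several maternal genes restrain it. The reads here were not assigned to alleles, so each value below is the summed output of both copies, and in cultures of mixed cells fewer cells of a type cannot be told apart from less RNA per cell.

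Library totals ran from 10408252 to 27337740 expected counts. Sox2 was at 119 to 171 TPM (RSEM's length-scaled share of a library's transcripts) in EpiLC, 7.78 to 13.7 in CEpiLC, 12.3 to 21.2 in SOX2-OFF and 173 to 215 in SOX2-ON, and the reads do not separate transgene from endogenous gene. As background to the line comparisons, 3 whole chromosomes stood apart in the SOX2 TetON line. The median gene of chromosome 11 was shifted by -0.52 (log2) in SOX2-OFF and by -0.54 in SOX2-ON against CEpiLC, that of chromosome 6 by 0.57 in both, and that of chromosome 8 by 0.60 in both. Of the 40 genes, 4 lie on chromosome 11 and 4 on chromosome 6, none on chromosome 8, and 18 on chromosome 7, whose shift was 0.05 and 0.01. Marker genes also moved with the line. The summed level of the extraembryonic endoderm list was 309 to 330 TPM in EpiLC, 301 to 427 in CEpiLC, 1599 to 1895 in SOX2-OFF and 733 to 1711 in SOX2-ON, with 15 of 16 tested genes higher in SOX2-OFF and 12 in SOX2-ON than in CEpiLC. Among its defining genes, Gata6 was at 0.67 to 1.38 TPM in CEpiLC, at 19.5 to 22.9 in SOX2-OFF and at 27.9 to 69.7 in SOX2-ON, and Cubn at 0.08 to 0.22, at 70.5 to 100.1 and at 24 to 77.4. Hnf4a was listed at 0 in CEpiLC and at 0.55 to 2.95 TPM in the line, whereas Afp and Apoa1 were at 0.83 TPM or less in every library. The trophoblast list summed to 234 to 360 TPM in CEpiLC, 797 to 1023 in SOX2-OFF and 281 to 485 in SOX2-ON, and the fibroblast list to 131 to 249 in EpiLC, 135 to 193 in CEpiLC, 46.9 to 106 in SOX2-OFF and 42.8 to 79.7 in SOX2-ON. The nascent mesoderm list summed to 5.04 to 7.21 TPM in EpiLC, 602 to 1536 in CEpiLC, 1101 to 1362 in SOX2-OFF and 164 to 216 in SOX2-ON. The part of these cell types and of the chromosome shifts in the values below was not tested, except that fold changes are also given with the chromosome's shift removed where that mattered. The shift removed is a median over the genes of a chromosome. An imprinted gene need not share that median, and whether it does was not tested.

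The starts of 5 genes with a large change between the lines are shown here because they are of the kind that carries a parental mark, or lie beside one. The promoters of Kcnq1ot1, Peg3, Mest and Plagl1 are known to lie within control regions that are methylated on the maternal copy, whereas the upstream start of Grb10 is the one used by the maternal copy in most tissues and its control region lies further into the gene. Each run is the RefSeq window in GRCm38.p6 from 250 bases before to 50 bases after a start, read 5′ to 3′ along the gene, and capitals mark TGCCGC or its reverse complement GCGGCA, the hexamer that the imprint-keeping protein ZFP57 binds when it is methylated.
Kcnq1ot1, chr7:143296498-143296797, minus strand: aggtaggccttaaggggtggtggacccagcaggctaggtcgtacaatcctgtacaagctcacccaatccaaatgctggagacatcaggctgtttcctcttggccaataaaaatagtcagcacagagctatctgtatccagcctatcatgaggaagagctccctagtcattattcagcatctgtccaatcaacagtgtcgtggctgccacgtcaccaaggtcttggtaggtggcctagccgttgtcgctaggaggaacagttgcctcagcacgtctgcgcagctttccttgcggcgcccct
Peg3, chr7:6730370-6730669, minus strand: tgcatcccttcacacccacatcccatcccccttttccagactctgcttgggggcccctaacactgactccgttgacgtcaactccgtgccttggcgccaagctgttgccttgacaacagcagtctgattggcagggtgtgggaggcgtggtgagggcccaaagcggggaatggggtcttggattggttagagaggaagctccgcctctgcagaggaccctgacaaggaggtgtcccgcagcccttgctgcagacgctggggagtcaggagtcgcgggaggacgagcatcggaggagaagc
Mest, chr6:30737800-30738099, plus strand: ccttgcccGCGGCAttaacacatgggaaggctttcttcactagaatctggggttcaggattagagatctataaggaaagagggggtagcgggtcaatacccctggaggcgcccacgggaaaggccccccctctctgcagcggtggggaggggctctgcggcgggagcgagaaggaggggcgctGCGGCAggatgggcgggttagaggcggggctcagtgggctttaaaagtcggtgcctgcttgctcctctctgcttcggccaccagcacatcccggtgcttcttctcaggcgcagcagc
Plagl1, chr10:13090582-13090881, plus strand: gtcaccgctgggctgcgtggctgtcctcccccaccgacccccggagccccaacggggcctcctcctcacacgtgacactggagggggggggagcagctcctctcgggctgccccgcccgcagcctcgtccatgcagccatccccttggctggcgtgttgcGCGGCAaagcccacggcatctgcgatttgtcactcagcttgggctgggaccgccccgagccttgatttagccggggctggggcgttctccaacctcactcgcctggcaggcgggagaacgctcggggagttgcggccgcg
Grb10, chr11:12037371-12037670, minus strand: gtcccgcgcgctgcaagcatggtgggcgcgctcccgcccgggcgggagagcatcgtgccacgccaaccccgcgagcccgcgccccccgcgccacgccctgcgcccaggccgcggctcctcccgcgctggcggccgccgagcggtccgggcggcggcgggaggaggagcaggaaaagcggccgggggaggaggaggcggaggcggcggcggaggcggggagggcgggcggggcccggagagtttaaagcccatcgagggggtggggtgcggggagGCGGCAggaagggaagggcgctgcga
The window of Mest holds 2 matches, those of Plagl1 and Grb10 hold 1 each, and the letters are not in those of Kcnq1ot1 and Peg3. CpG pairs numbered 9 in Kcnq1ot1, 13 in Peg3, 17 in Mest, 26 in Plagl1 and 45 in Grb10, against a median of 7 over all windows. The Peg3 window overlaps that of Usp29 (chr7:6730333-6730632, plus strand), which starts in the opposite direction. RefSeq windows were at hand for 32 of the 40 genes. Of their 48 windows, 12 (25.0%) held a match on either strand, against 3813 of all 32851 windows (11.6%). These 12 windows belong to 11 genes, since overlapping windows of Mest hold the same matches. The hexamer itself holds a CpG pair, and the median of CpG pairs was 14.5 in the windows of these genes against 7 over all. The shares were not matched for CpG content, so whether the hexamer is more frequent than that content gives was not tested. These are descriptions of the letters, and no binding was measured.

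Imprinted genes rose and fell in each of the 4 comparisons. The median size of their log2 fold change was 0.59 against 0.26 for all tested genes in CEpiLC vs EpiLC, 0.65 against 0.33 in SOX2-OFF vs CEpiLC, 0.65 against 0.37 in SOX2-ON vs CEpiLC and 0.43 against 0.21 in SOX2-ON vs SOX2-OFF. A gene was called where its adjusted p was at most 0.05. With CHIR99021 in wild-type cells, 12 of the 37 tested genes rose and 7 fell, where 22.1% of all tested genes rose and 20.1% fell (42.2% called). In SOX2-OFF vs CEpiLC, 12 were higher and 12 lower, against 23.6% and 24.9% of all genes (48.5% called). In SOX2-ON vs CEpiLC, 14 were higher and 11 lower, against 27.9% and 28.6% (56.5% called). In SOX2-ON vs SOX2-OFF, 12 were higher and 3 lower, against 14.8% and 14.1% (28.8% called). Large changes, meaning called with a log2 fold change over 1 in size, numbered 8, 10, 11 and 8 of the 37 in these 4 comparisons, that is 21.6, 27.0, 29.7 and 21.6%, where all genes gave 12.2, 13.7, 17.0 and 9.61%. Altogether 18 of the genes had a large change in at least 1 comparison.

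Grouped by the allele listed for each gene, which was not checked in these cells, the calls in SOX2-ON vs CEpiLC ran in opposite directions. Of 20 tested paternally expressed genes 11 were higher and 2 lower, and of 16 maternally expressed genes 3 were higher and 8 lower. The counts were the same with the chromosome shifts removed, but the paternal genes behind them were not. Sgce was then no longer called (0.08, adjusted p = 0.51). Zrsr1 turned from lower to higher (0.30, adjusted p = 0.0084), and Nap1l5 became lower (-0.67, adjusted p = 0.026). In SOX2-OFF vs CEpiLC the paternal genes gave 9 higher and 5 lower and the maternal genes 3 higher and 6 lower, which became 7 and 6, and 3 and 7, with the shifts removed. In SOX2-ON vs SOX2-OFF, 10 paternal genes were higher and 2 lower while 2 maternal genes were higher and 1 lower. CHIR99021 in wild-type cells gave 7 paternal genes higher and 4 lower and 5 maternal genes higher and 3 lower. The difference between the allele classes was not tested, since genes of one locus are not independent.

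**Figure D1:**
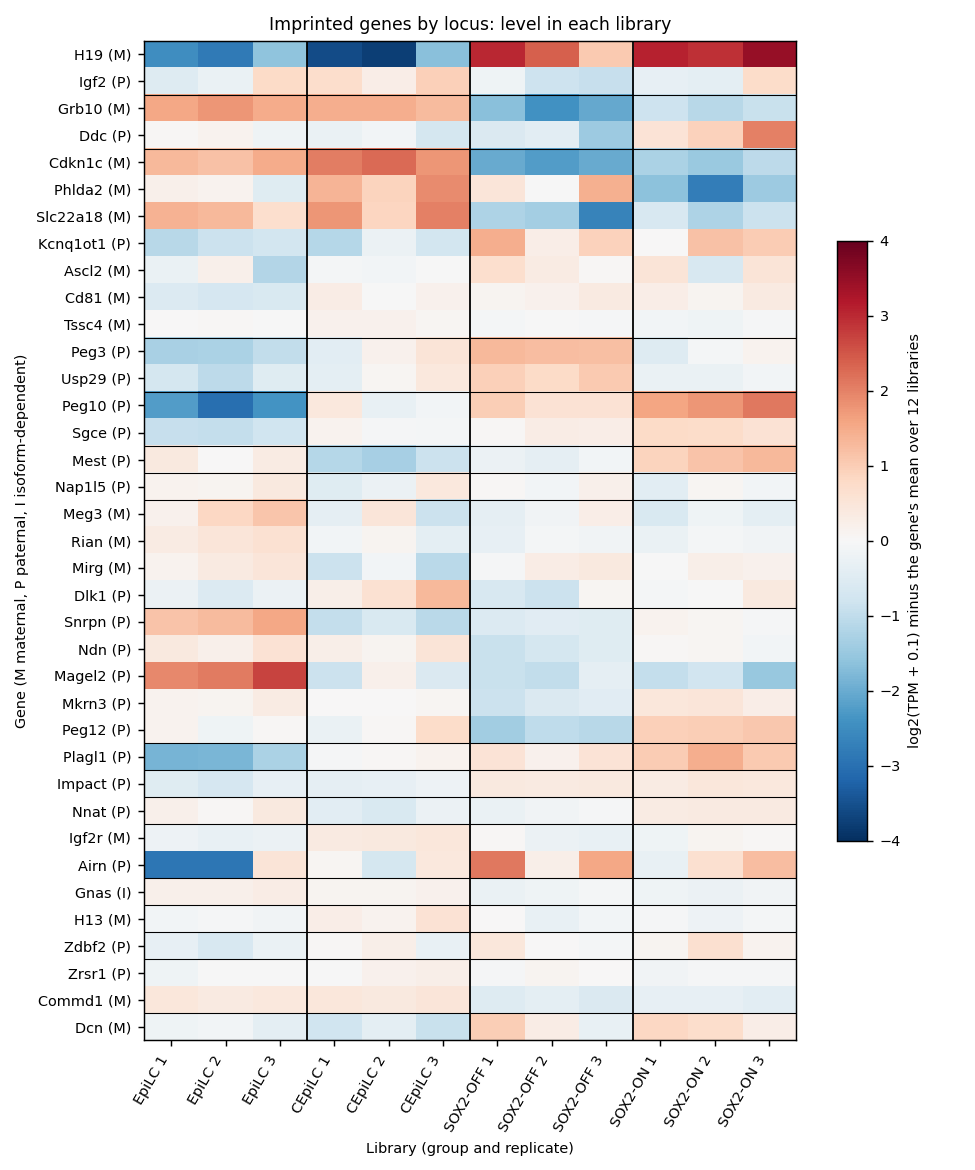
Level of each imprinted gene in each of the 12 libraries, as log2(TPM + 0.1) minus the gene's mean over the libraries; rows are genes grouped by locus, with genes under 0.5 TPM on average left out. H19 is high and Grb10, Cdkn1c and Slc22a18 are low in all 6 libraries of the SOX2 TetON line, whereas Snrpn and Magel2 are high in the 3 EpiLC libraries.

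H19, an untranslated RNA of the maternal chromosome, differed more between the lines than any other of the 37 genes. It stood at 2.82, 2.21 and 5.23 TPM in EpiLC, at 1.28, 1.09 and 5.05 in CEpiLC, at 131, 86.1 and 33.6 in SOX2-OFF and at 137, 123 and 184 in SOX2-ON. All 6 SOX2 TetON libraries thus lay above all 6 wild-type libraries. The log2 fold change against CEpiLC was 5.39 (SE 0.55, adjusted p = 5.2e-06) in SOX2-OFF and 6.15 (SE 0.55, adjusted p = 1.1e-06) in SOX2-ON. CEpiLC replicate 3 held most of the CEpiLC signal, and without it the values were 6.14 and 6.91. Doxycycline made no called difference within the line (log2 fold change 0.77, SE 0.38, adjusted p = 0.15), although without SOX2-OFF replicate 1 that value was 1.22 with an adjusted p of 0.044. Nor did CHIR99021 in wild-type cells (-0.69, SE 0.73, adjusted p = 0.48).

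Igf2, the fetal growth factor read from the paternal copy of the same locus, did not follow H19. Its levels were 22.6, 27.1 and 55.5 TPM in EpiLC, at 53.0, 39.1 and 62.8 in CEpiLC, at 28.4, 18.2 and 16.9 in SOX2-OFF and at 25.8, 24.5 and 54.5 in SOX2-ON. It was lower in SOX2-OFF than in CEpiLC (log2 fold change -1.26, SE 0.38, adjusted p = 0.014), a call that was lost without SOX2-OFF replicate 2 (-1.15, adjusted p = 0.055) or replicate 3 (-1.09, adjusted p = 0.054). SOX2-ON overlapped CEpiLC (-0.54, SE 0.36, adjusted p = 0.23), though without SOX2-ON replicate 3 the value was -0.999 with an adjusted p of 0.032. CHIR99021 gave 0.59 (SE 0.37, adjusted p = 0.21), and without EpiLC replicate 3 it gave 1.10 with an adjusted p of 0.026. The ratio of H19 to Igf2 in TPM, which is per length, was 0.0817 to 0.125 in EpiLC, 0.0242 to 0.0805 in CEpiLC, 1.98 to 4.74 in SOX2-OFF and 3.38 to 5.28 in SOX2-ON, so the pair was weighted to the paternal gene in every wild-type library and to the maternal gene in every SOX2 TetON library. H19 lies at chr7:142575530-142578146 and Igf2 at chr7:142650768-142666816. Of 6 other tested genes that start within 500 kb of either, 2 were higher and 1 lower in SOX2-OFF and 3 higher and 2 lower in SOX2-ON, with medians of -0.05 and 0.17.

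Some values moved with these 2 genes. Within the wild type, replicate 3 of each group was the highest for H19 and for Igf2 and also for the fibroblast list, which summed to 249 TPM in EpiLC replicate 3 and 193 in CEpiLC replicate 3. The summed list was lower in the SOX2 TetON line, where H19 was high. Its genes went both ways, with 1 higher and 3 lower of 13 tested in SOX2-OFF vs CEpiLC and 4 and 4 in SOX2-ON vs CEpiLC. The extraembryonic endoderm list, high in the line as H19 was, summed to 1599, 1895 and 1707 TPM in SOX2-OFF replicates 1 to 3, where H19 was at 131, 86.1 and 33.6 TPM, and to 733, 852 and 1711 TPM in SOX2-ON, where H19 was at 137, 123 and 184 TPM. Their part in the H19 difference was not tested.

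At the Kcnq1 domain, further along chromosome 7, the paternal long RNA was higher than in CEpiLC in both groups of the SOX2 TetON line, and the maternal genes Cdkn1c and Slc22a18 were lower in both. In SOX2-ON, Phlda2 and Tssc4 were lower as well. Kcnq1ot1, whose start is printed above, was at 0.25, 0.31 and 0.35 TPM in EpiLC, at 0.24, 0.54 and 0.35 in CEpiLC, at 1.93, 0.79 and 1.31 in SOX2-OFF and at 0.65, 1.58 and 1.42 in SOX2-ON. The lines did not overlap, and its 168 to 1453 counts per library lie along a long transcript. The log2 fold change against CEpiLC was 1.86 (SE 0.37, adjusted p = 0.0011) in SOX2-OFF and 1.66 (SE 0.37, adjusted p = 0.0018) in SOX2-ON. Neither SOX2-ON vs SOX2-OFF (-0.19, SE 0.35, adjusted p = 0.72) nor CHIR99021 (0.31, SE 0.39, adjusted p = 0.55) gave a call.

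Cdkn1c, which encodes the cyclin-dependent kinase inhibitor p57, was at 15.3, 14.0 and 17.2 TPM in EpiLC, at 25.9, 30.0 and 20.9 in CEpiLC, at 1.43, 1.22 and 1.45 in SOX2-OFF and at 2.49, 2.14 and 2.94 in SOX2-ON. The groups did not overlap in any of the 4 comparisons. Against CEpiLC it was 18.5-fold lower in SOX2-OFF (log2 fold change -4.21, SE 0.18, adjusted p = 2.1e-08) and 10.3-fold lower in SOX2-ON (-3.37, SE 0.16, adjusted p = 1.2e-08). It rose with CHIR99021 in wild-type cells (0.74, SE 0.14, adjusted p = 0.00083) and was higher in SOX2-ON than in SOX2-OFF (0.85, SE 0.21, adjusted p = 0.0093), the last of which limma-voom did not call (0.82, adjusted p = 0.076). Cdkn1c and Kcnq1ot1 were set against each other in TPM by a ratio of 45.1 to 61.4 in EpiLC, 55.5 to 108 in CEpiLC, 0.741 to 1.54 in SOX2-OFF and 1.35 to 3.83 in SOX2-ON.

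Slc22a18, a solute carrier, was at 1.58, 1.48 and 0.93 TPM in EpiLC, at 2.08, 1.07 and 2.47 in CEpiLC, at 0.17, 0.15 and 0 in SOX2-OFF and at 0.31, 0.17 and 0.25 in SOX2-ON. No SOX2-OFF library had more than 3 counts, and against that floor of 3 counts per library it was at least 6.74-fold lower in SOX2-OFF than in CEpiLC. In SOX2-ON the log2 fold change was -2.92 (SE 0.49, adjusted p = 0.00023). Phlda2, which restrains growth of the placenta, had another pattern. It was at 30.9, 30.0 and 19.1 TPM in EpiLC, at 68.8, 50.1 and 101 in CEpiLC, at 37.9, 26.6 and 71.7 in SOX2-OFF and at 8.60, 3.85 and 9.68 in SOX2-ON. It rose with CHIR99021 (1.44, SE 0.37, adjusted p = 0.0076), overlapped CEpiLC in SOX2-OFF (-0.67, SE 0.36, adjusted p = 0.15) and was lower in SOX2-ON than in CEpiLC (-3.32, SE 0.43, adjusted p = 2.6e-05) and than in SOX2-OFF (-2.65, SE 0.44, adjusted p = 0.00056). Without SOX2-OFF replicate 3, the SOX2-OFF value against CEpiLC was -1.17 with an adjusted p of 0.016.

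The other maternal genes of the domain moved little between the lines. Cd81, a tetraspanin, was at 111, 102 and 106 TPM in EpiLC, at 202, 163 and 183 in CEpiLC, at 178, 185 and 207 in SOX2-OFF and at 196, 178 and 209 in SOX2-ON. It rose with CHIR99021 (0.79, SE 0.10, adjusted p = 2.8e-05), and the line comparisons gave 0.08 and 0.05, neither called. Tssc4 ranged from 24.5 to 31.8 TPM over all libraries and was called in SOX2-ON vs CEpiLC alone (-0.30, SE 0.08, adjusted p = 0.0066), and also in SOX2-OFF (-0.22, adjusted p = 0.040) with the chromosome shift removed. Ascl2, a transcription factor of trophoblast, was at 0.39 to 1.65 TPM and was called in none. Kcnq1 itself did not exceed 0.26 TPM. Along the domain, the genes with a large fall in the SOX2 TetON line stand side by side. They are Cdkn1c (chr7:143458339-143461059), Slc22a18 (chr7:143473726-143499334) and, in SOX2-ON, Phlda2 (chr7:143501545-143503145). Cd81, and Tssc4 with its small fall in SOX2-ON, lie on the far side of Kcnq1ot1 (chr7:143213111-143296547). Nap1l4, another imprinted gene, starts beyond Phlda2 and had a small fall in SOX2-ON too (-0.21, SE 0.06, adjusted p = 0.0066). Of 10 other tested genes that start within 500 kb, 0 were higher and 2 lower in SOX2-OFF (median -0.05) and 2 were higher and 3 lower in SOX2-ON (median 0.09).

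**Figure D2:**
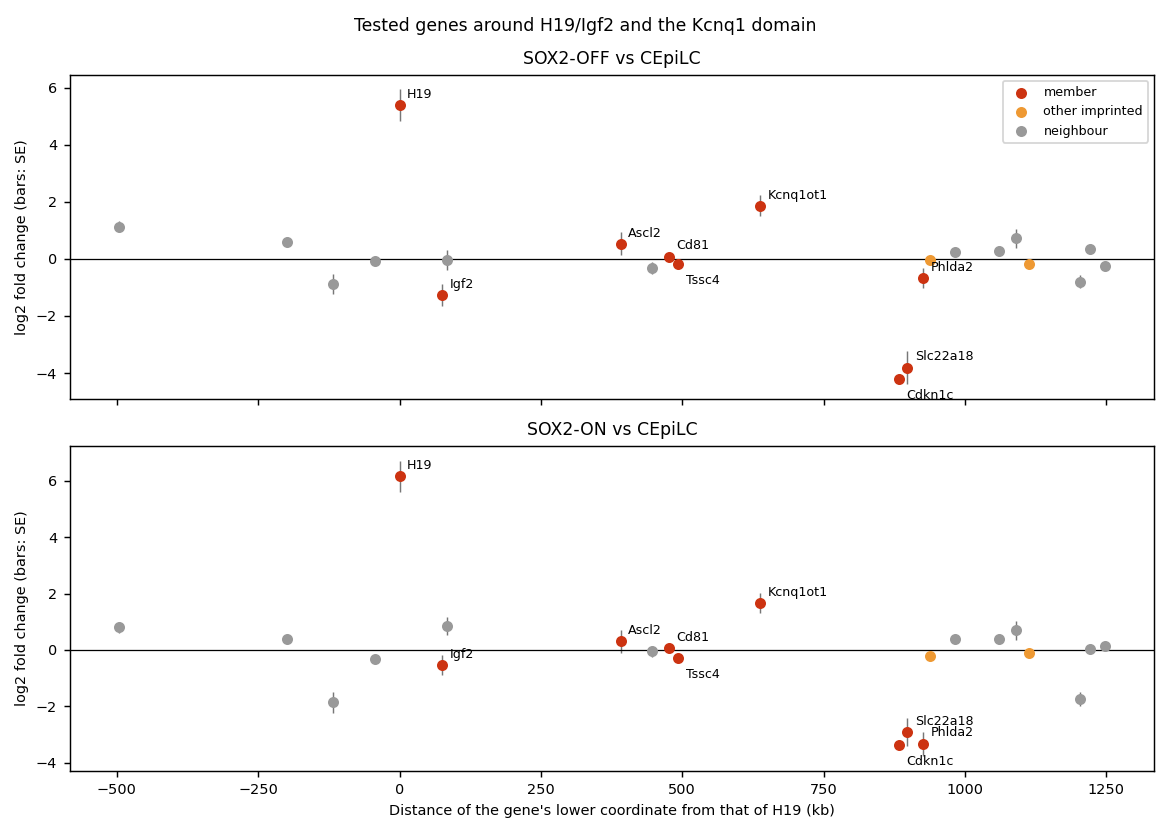
Log2 fold change against CEpiLC of the tested genes around H19/Igf2 and the Kcnq1 domain, by distance in kb from H19, for SOX2-OFF (above) and SOX2-ON (below); bars are standard errors. The genes listed here are red, other listed imprinted genes orange and neighbours grey, and the fitted value of Slc22a18 in SOX2-OFF rests on counts at the floor. H19 and Kcnq1ot1 lie above the neighbours on each side of them, and Cdkn1c and Slc22a18 below theirs.

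Grb10 and Ddc share a locus on chromosome 11. Grb10, an adaptor protein that restrains insulin and growth factor receptors, was at 148, 172 and 144 TPM in EpiLC, at 139.7, 139 and 122 in CEpiLC, at 16.0, 9.51 and 12.3 in SOX2-OFF and at 28.4, 23.4 and 27.2 in SOX2-ON. All 6 libraries of the line were lower than all 6 wild-type libraries. The log2 fold change against CEpiLC was -3.40 (SE 0.15, adjusted p = 2.1e-08) in SOX2-OFF and -2.39 (SE 0.14, adjusted p = 4.5e-08) in SOX2-ON, and with the shift of chromosome 11 removed it was -2.88 and -1.85, both called. SOX2-ON was higher than SOX2-OFF (1.01, SE 0.15, adjusted p = 0.00021). CHIR99021 changed it by -0.20 (SE 0.13, adjusted p = 0.25). Ddc, the aromatic amino acid decarboxylase read from the paternal copy in some tissues, was at 1.22, 1.31 and 1.02 TPM in EpiLC, at 0.95, 1.07 and 0.69 in CEpiLC, at 0.76, 0.86 and 0.37 in SOX2-OFF and at 1.77, 2.33 and 5.06 in SOX2-ON. It was higher in SOX2-ON than in CEpiLC (1.67, SE 0.38, adjusted p = 0.0022) and than in SOX2-OFF (2.07, SE 0.41, adjusted p = 0.0019). The 2 other tested genes nearby were both called lower than in CEpiLC in SOX2-OFF (median -1.59), and 1 of them in SOX2-ON (median -0.28). In SOX2-ON vs SOX2-OFF, 1 of the 2 was called higher (median 1.31). These neighbours thus moved in the same directions as Grb10.

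The second locus on chromosome 11 holds Commd1, a protein of copper handling, and Zrsr1, a retrogene within it. Commd1 was at 225 to 243 TPM in the 6 wild-type libraries and 117 to 140.2 in the 6 SOX2 TetON libraries, with log2 fold changes against CEpiLC of -0.91 (SE 0.07, adjusted p = 5.3e-07) in SOX2-OFF and -0.82 (SE 0.07, adjusted p = 6.3e-07) in SOX2-ON. With the chromosome shift removed these were -0.40 and -0.28, and the 6 other tested genes nearby had medians of -0.49 and -0.60. Zrsr1 stayed between 13.3 and 17.4 TPM in all libraries. Its call in SOX2-ON vs CEpiLC (-0.24, SE 0.08, adjusted p = 0.024) turned to 0.30 (adjusted p = 0.0084) with the shift removed. It was lost without CEpiLC replicate 2 (-0.21, adjusted p = 0.069) or 3 (-0.18, adjusted p = 0.087) or SOX2-ON replicate 1 (-0.22, adjusted p = 0.071) or 3 (-0.23, adjusted p = 0.055). A fit of only the 6 libraries compared lost it too (-0.24, adjusted p = 0.058). In SOX2-OFF, -0.09 (adjusted p = 0.36) became 0.42 (adjusted p = 0.0014) with the shift removed. With CHIR99021 it gave 0.21 (SE 0.08, adjusted p = 0.055). This was called with the replicate number as a block (adjusted p = 0.026), though the labels do not say that the numbers pair the cultures.

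**Figure D3:**
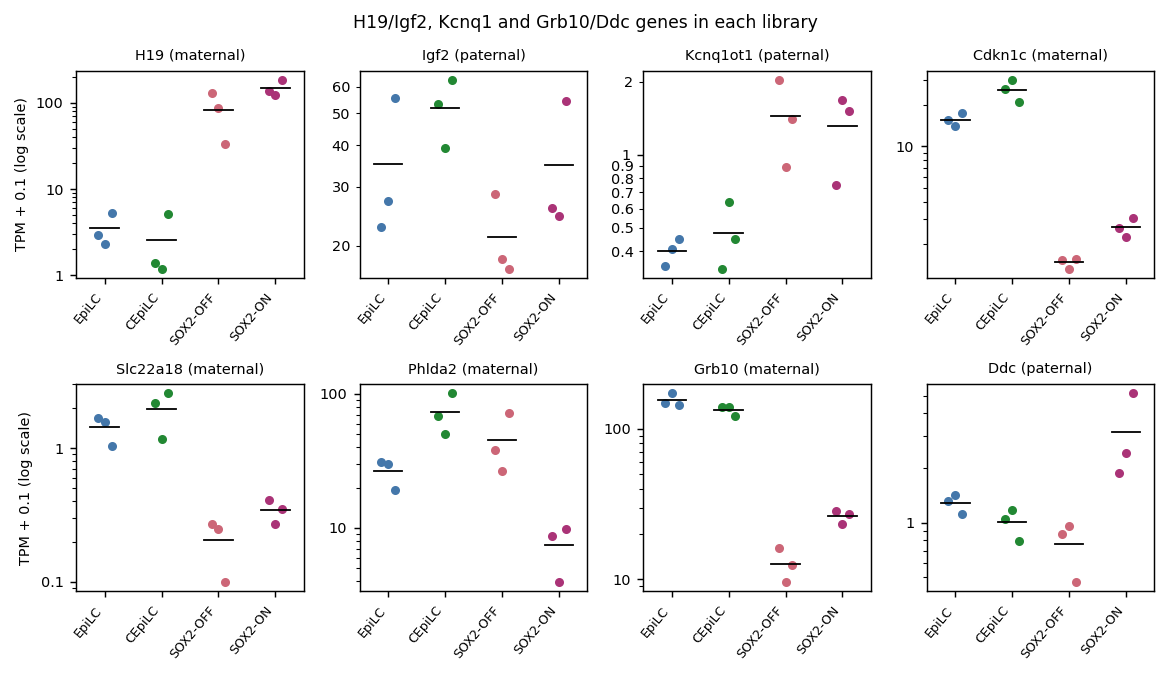
Level (TPM + 0.1, log scale, a separate axis for each gene) of 8 genes of the H19/Igf2, Kcnq1 and Grb10/Ddc loci in each library; points are the 3 libraries of a group and bars are their mean. The 6 SOX2 TetON libraries lie above the 6 wild-type libraries for H19 and Kcnq1ot1 and below them for Cdkn1c, Slc22a18 and Grb10.

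Of the 4 paternal genes on chromosome 6, Peg10, Sgce and Mest were higher in SOX2-ON than in SOX2-OFF and Nap1l5 was not called. Peg10, a protein derived from a retrotransposon and needed in the placenta, was the most abundant of the 40 genes by its mean TPM over the 12 libraries. It was at 104, 61.0 and 93.3 TPM in EpiLC, at 661, 401 and 460.1 in CEpiLC, at 978, 743 and 729 in SOX2-OFF and at 1468, 1684 and 2129 in SOX2-ON. The 4 groups did not overlap. It rose 5.91-fold with CHIR99021 (log2 fold change 2.56, SE 0.22, adjusted p = 1.6e-06) and was higher in SOX2-ON than in SOX2-OFF (1.06, SE 0.21, adjusted p = 0.0023). Against CEpiLC it gave 0.70 (SE 0.21, adjusted p = 0.015) in SOX2-OFF and 1.75 (SE 0.22, adjusted p = 1.8e-05) in SOX2-ON. With the median shift of chromosome 6 removed these were 0.13 (adjusted p = 0.65) and 1.19 (adjusted p = 0.00051). The SOX2-OFF call was also lost without CEpiLC replicate 2 (0.54, adjusted p = 0.066) or SOX2-OFF replicate 1 (0.56, adjusted p = 0.069). Sgce, epsilon-sarcoglycan, which starts beside Peg10 in the opposite direction, moved by less. It ranged from 26.1 to 28.7 TPM in EpiLC, 47.6 to 55.6 in CEpiLC, 51.8 to 62.5 in SOX2-OFF and 75.4 to 85.5 in SOX2-ON, rising by 0.91 (SE 0.10, adjusted p = 1.1e-05) with CHIR99021 and by 0.43 (SE 0.09, adjusted p = 0.0038) from SOX2-OFF to SOX2-ON. Its 0.65 in SOX2-ON vs CEpiLC (adjusted p = 7.0e-05) became 0.08 (adjusted p = 0.51) with the shift removed, and its 0.21 in SOX2-OFF (adjusted p = 0.082) became -0.36 (adjusted p = 0.0081), while without CEpiLC replicate 1 it was 0.31 (adjusted p = 0.030) and without SOX2-OFF replicate 1 it was 0.30 (adjusted p = 0.021).

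Mest, a hydrolase-like protein of embryonic mesoderm whose start is printed above, fell with CHIR99021 and was higher in SOX2-ON than in SOX2-OFF. It was at 320, 246 and 304 TPM in EpiLC, at 109, 95.5 and 133 in CEpiLC, at 204, 188 and 225 in SOX2-OFF and at 449, 535 and 591 in SOX2-ON. The log2 fold changes were -1.35 (SE 0.14, adjusted p = 5.5e-06) with CHIR99021, 1.29 (SE 0.13, adjusted p = 1.4e-05) in SOX2-ON vs SOX2-OFF, 0.88 (SE 0.13, adjusted p = 0.00013) in SOX2-OFF vs CEpiLC and 2.17 (SE 0.14, adjusted p = 7.0e-08) in SOX2-ON vs CEpiLC. With the chromosome shift removed the last 2 were 0.31 (adjusted p = 0.071) and 1.61 (adjusted p = 1.1e-06). Nap1l5, on the same chromosome at 3.82 to 7.34 TPM, was called in no comparison, although without CEpiLC replicate 3 it fell by 0.59 with CHIR99021 (adjusted p = 0.027) and with the shift removed it gave -0.67 in SOX2-ON vs CEpiLC (adjusted p = 0.026).

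**Figure D4:**
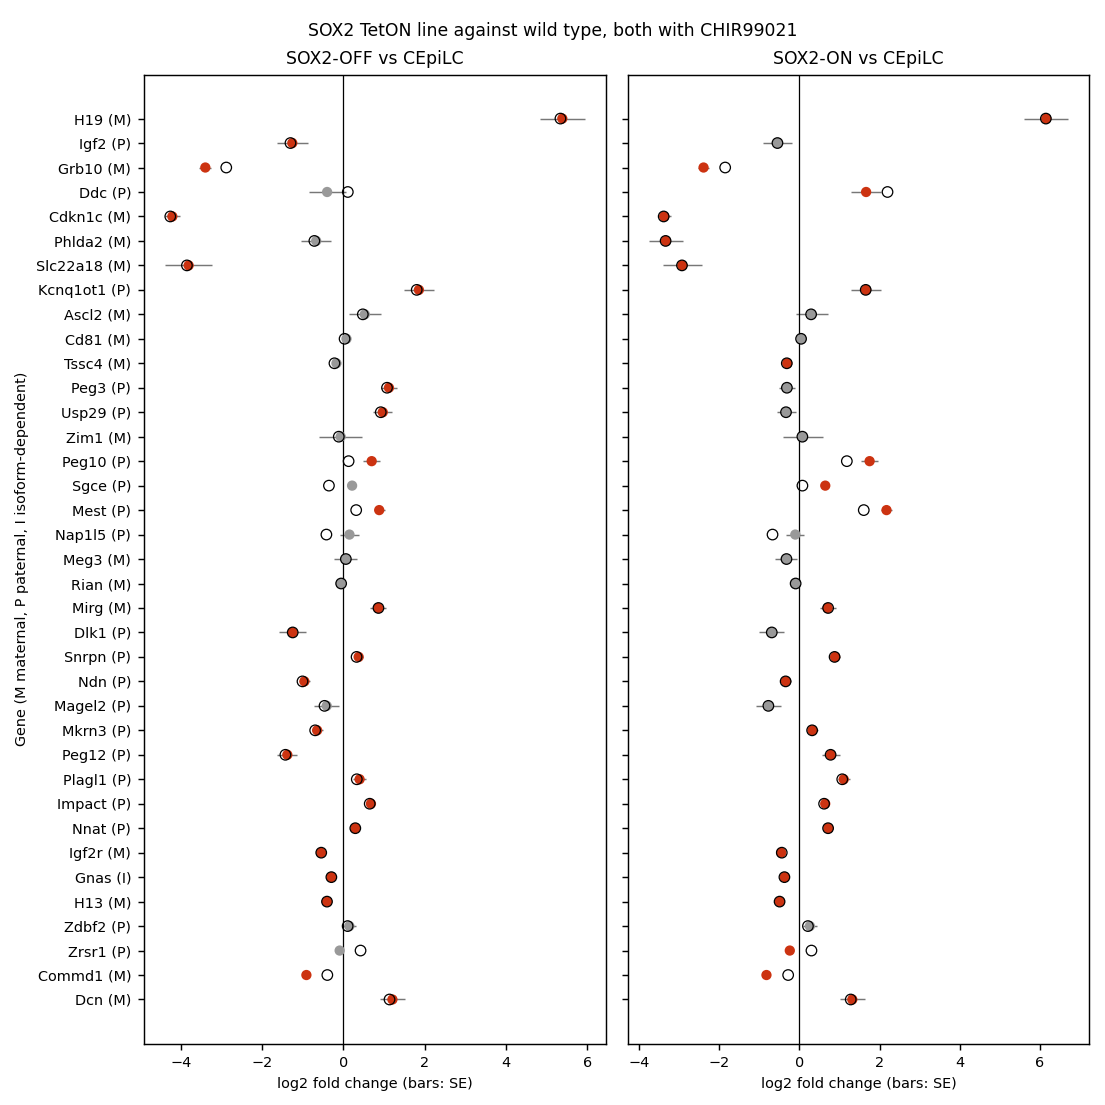
Log2 fold change of each tested imprinted gene in SOX2-OFF (left) and SOX2-ON (right) against the same CEpiLC libraries, with bars for the standard error. Red points passed the test and grey points did not, and open circles give the value with the median shift of the gene's chromosome removed. The open circles part from the points for Grb10, Ddc, Peg10, Sgce, Mest, Nap1l5, Zrsr1 and Commd1, on chromosomes 11 and 6, and the fitted value of Slc22a18 in SOX2-OFF rests on counts at the floor.

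Peg3, a zinc finger protein, and Usp29, a ubiquitin peptidase, start head to head at 1 paternally active promoter region on chromosome 7 and moved together. Peg3 was at 39.2, 40.1 and 49.1 TPM in EpiLC, at 72.4, 107 and 137 in CEpiLC, at 235, 225 and 222 in SOX2-OFF and at 66.9, 91.7 and 106 in SOX2-ON. SOX2-OFF stood above the other groups. The log2 fold change was 1.31 (SE 0.20, adjusted p = 0.00016) with CHIR99021, 1.12 (SE 0.19, adjusted p = 0.00035) in SOX2-OFF vs CEpiLC and -1.42 (SE 0.19, adjusted p = 0.00013) in SOX2-ON vs SOX2-OFF. SOX2-ON overlapped CEpiLC (-0.30, adjusted p = 0.20), though without CEpiLC replicate 1 the value was -0.50 with an adjusted p of 0.015. Usp29 was far lower, at 0.46, 0.34 and 0.56 TPM in EpiLC, at 0.60, 0.86 and 1.13 in CEpiLC, at 1.65, 1.44 and 1.80 in SOX2-OFF and at 0.66, 0.66 and 0.75 in SOX2-ON, and gave 0.90 (SE 0.25, adjusted p = 0.012), 0.97 (SE 0.23, adjusted p = 0.0035) and -1.29 (SE 0.23, adjusted p = 0.0011) in the same 3 comparisons. The first of these was lost without EpiLC replicate 2 (0.72, adjusted p = 0.057). The ratio of Peg3 to Usp29 in TPM stayed between 85.1 and 157 in all 12 libraries. Zim1, the maternal zinc finger gene of the locus, did not exceed 0.84 TPM and was called in none, except with CHIR99021 where EpiLC replicate 3 was left out (1.53, adjusted p = 0.042).

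At the Snrpn locus of chromosome 7, 5 paternal genes were measured and they did not move as a block. Snrpn encodes a core protein of small nuclear ribonucleoproteins. It was at 375, 408 and 497 TPM in EpiLC, at 88.9, 112 and 80.2 in CEpiLC, at 116, 123 and 121 in SOX2-OFF and at 188, 181 and 166 in SOX2-ON. It fell 4.51-fold with CHIR99021 (log2 fold change -2.17, SE 0.12, adjusted p = 2.0e-08) and was higher in SOX2-ON than in SOX2-OFF (0.52, SE 0.11, adjusted p = 0.0038). Against CEpiLC it gave 0.37 (SE 0.11, adjusted p = 0.015) in SOX2-OFF, lost without CEpiLC replicate 3 (0.29, adjusted p = 0.055), and 0.89 (SE 0.11, adjusted p = 2.1e-05) in SOX2-ON. Its reads were shared with the overlapping Snurf, whose counts gave -2.17 with CHIR99021 as well, so that the level of each is uncertain. Magel2, a MAGE family protein, fell with it, from 17.3, 19.5 and 29.7 TPM in EpiLC to 2.45, 5.24 and 3.02 in CEpiLC. It was at 2.38, 2.23 and 3.47 TPM in SOX2-OFF and at 2.31, 2.63 and 1.52 in SOX2-ON. The log2 fold change was -2.62 (SE 0.28, adjusted p = 1.1e-05) with CHIR99021, and no other comparison was called, although DESeq2 called SOX2-ON vs CEpiLC (-0.75, adjusted p = 0.023) and leaving out CEpiLC replicate 1 did so too (-0.997, adjusted p = 0.017).

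Ndn, Mkrn3 and Peg12, which lie beside Magel2, did not change with CHIR99021 to a called degree (-0.10, -0.16 and 0.18) and were lowest in SOX2-OFF. Peg12, a FRAT-like protein that binds GSK3, was at 4.31, 3.46 and 3.96 TPM in EpiLC, at 3.22, 3.98 and 6.44 in CEpiLC, at 1.41, 1.86 and 1.75 in SOX2-OFF and at 7.52, 7.72 and 8.22 in SOX2-ON. The 2 groups of the line lay on opposite sides of both wild-type groups. Peg12 was lower in SOX2-OFF (-1.38, SE 0.25, adjusted p = 0.00046) and higher in SOX2-ON (0.79, SE 0.21, adjusted p = 0.0069) than in CEpiLC, and 2.17 (SE 0.24, adjusted p = 2.3e-05) higher on the log2 scale in SOX2-ON than in SOX2-OFF. Mkrn3, a ubiquitin ligase, gave -0.65 (SE 0.13, adjusted p = 0.0013), 0.33 (SE 0.13, adjusted p = 0.040) and 0.98 (SE 0.13, adjusted p = 0.00012) in these comparisons, and the second was lost without any 1 of CEpiLC replicates 1 and 2 and SOX2-ON replicates 1 and 2 (0.29 to 0.33, adjusted p 0.085 to 0.12). That second call was also lost with library-size scaling (0.30, adjusted p = 0.058) or no count filter (0.33, adjusted p = 0.054). Ndn, necdin, ran from 52.7 to 86.3 TPM outside SOX2-OFF and from 30.9 to 41.2 within it, with -0.96 (SE 0.14, adjusted p = 7.7e-05), -0.33 (SE 0.13, adjusted p = 0.047) and 0.63 (SE 0.14, adjusted p = 0.0040). The call of Ndn in SOX2-ON vs CEpiLC was lost without CEpiLC replicate 1 or 3 or any SOX2-ON replicate (-0.37 to -0.21, adjusted p 0.066 to 0.19). RLE scaling (-0.32, adjusted p = 0.052) and limma-voom (-0.30, adjusted p = 0.051) did not give that call either.

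At the Dlk1/Meg3 locus of chromosome 12, the maternal RNAs fell and the paternal gene rose with CHIR99021. Meg3 was at 156, 246 and 295 TPM in EpiLC, at 108, 195 and 76.3 in CEpiLC, at 108, 124 and 165 in SOX2-OFF and at 89.7, 121 and 105 in SOX2-ON. EpiLC and CEpiLC overlapped, and the call (-0.85, SE 0.27, adjusted p = 0.024) was lost without EpiLC replicate 2 (-0.83, adjusted p = 0.063) or 3 (-0.66, adjusted p = 0.10) or CEpiLC replicate 1 (-0.73, adjusted p = 0.083) or 3 (-0.61, adjusted p = 0.080). A fit of only the 6 libraries compared did not give the call either (-0.85, adjusted p = 0.056). Rian, a host of small nucleolar RNAs, was at 465, 510.2 and 558 TPM in EpiLC, at 342, 399 and 282 in CEpiLC, at 292, 349 and 330.5 in SOX2-OFF and at 302, 347 and 331 in SOX2-ON. It fell with CHIR99021 (-0.57, SE 0.10, adjusted p = 0.00073) and the line comparisons were not called (-0.06 and -0.10). Mirg, a host of microRNAs, was at 33.0, 38.8 and 42.4 TPM in EpiLC, at 16.6, 27.7 and 14.3 in CEpiLC, at 28.9, 37.2 and 39.4 in SOX2-OFF and at 29.8, 35.1 and 33.9 in SOX2-ON, so that CEpiLC was the low group. Its log2 fold change was -0.94 (SE 0.20, adjusted p = 0.0019) with CHIR99021, 0.86 (SE 0.20, adjusted p = 0.0028) in SOX2-OFF and 0.71 (SE 0.20, adjusted p = 0.0077) in SOX2-ON. Dlk1, a Notch-ligand-like membrane protein, was low at 1.06, 0.84 and 1.07 TPM in EpiLC, at 1.51, 1.99 and 3.26 in CEpiLC, at 0.78, 0.66 and 1.36 in SOX2-OFF and at 1.19, 1.26 and 1.71 in SOX2-ON. It rose with CHIR99021 (1.13, SE 0.31, adjusted p = 0.011) and was lower in SOX2-OFF than in CEpiLC (-1.25, SE 0.32, adjusted p = 0.0061), with -0.69 (adjusted p = 0.067) in SOX2-ON, which was called without CEpiLC replicate 1 (-0.93, adjusted p = 0.021). Rtl1 did not exceed 0.07 TPM.

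Plagl1 and Dcn, on chromosome 10, differed in what moved them. Plagl1, a zinc finger transcription factor, was at 2.51, 2.58 and 3.81 TPM in EpiLC, at 9.11, 9.72 and 10.4 in CEpiLC, at 13.8, 10.6 and 13.7 in SOX2-OFF and at 19.2, 25.7 and 19.5 in SOX2-ON. It rose 3.34-fold with CHIR99021 (log2 fold change 1.74, SE 0.17, adjusted p = 3.8e-06) and was higher in SOX2-ON than in CEpiLC (1.11, SE 0.15, adjusted p = 3.6e-05) and SOX2-OFF (0.71, SE 0.15, adjusted p = 0.0029). The SOX2-OFF difference from CEpiLC (0.40, SE 0.15, adjusted p = 0.044) was lost without CEpiLC replicate 1 or 2 or SOX2-OFF replicate 1 or 3 (0.33 to 0.39, adjusted p 0.092 to 0.14) and with the chromosome shift removed (0.33, adjusted p = 0.10). Library-size scaling did not call it either (0.35, adjusted p = 0.075). Dcn encodes decorin, a matrix proteoglycan of fibroblasts. It was at 2.01, 2.11 and 1.72 TPM in EpiLC, at 1.29, 1.74 and 1.18 in CEpiLC, at 4.67, 2.81 and 1.85 in SOX2-OFF and at 4.10, 3.77 and 2.75 in SOX2-ON. It was higher than CEpiLC in SOX2-OFF (1.21, SE 0.31, adjusted p = 0.0062) and SOX2-ON (1.32, SE 0.31, adjusted p = 0.0026), while the fibroblast list as a whole had 1 gene higher and 3 lower of 13 tested in the first and 4 and 4 in the second. Lum, a gene of that list and the 1 other tested gene that starts within 500 kb of Dcn, was at 0.21 TPM or less in the wild type. It was at 0 to 1.36 TPM in SOX2-OFF and 0.64 to 1.07 in SOX2-ON. Thy1, of the same list, went the other way. It was at 24.7 to 31.1 TPM in EpiLC, 24.8 to 66.8 in CEpiLC, 6.53 to 10.7 in SOX2-OFF and 7.29 to 11.0 in SOX2-ON.

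The tested genes of the remaining 6 loci had no change over 1 on the log2 scale. Impact, a regulator of the GCN2 kinase, was at 119 to 166 TPM in the wild type and 239 to 259 in the line (0.68 in SOX2-OFF and 0.65 in SOX2-ON vs CEpiLC, adjusted p = 1.1e-05 in each). Its small rise with CHIR99021 (0.21, adjusted p = 0.043) was lost without EpiLC replicate 1 or 2 or CEpiLC replicate 2 or 3 (0.12 to 0.23, adjusted p 0.053 to 0.18). The call was also lost with RLE scaling (adjusted p = 0.062), DESeq2 (adjusted p = 0.058) or no count filter (adjusted p = 0.0502). A fit of only the 6 libraries compared (adjusted p = 0.10) and removal of the chromosome shift (adjusted p = 0.053) lost it too. Nnat, neuronatin, fell with CHIR99021 (-0.64, SE 0.11, adjusted p = 0.00035) and was higher in SOX2-ON than in CEpiLC (0.72, SE 0.10, adjusted p = 6.7e-05) and SOX2-OFF (0.43, SE 0.10, adjusted p = 0.0077). Its SOX2-OFF call against CEpiLC (0.29, adjusted p = 0.035) was lost without CEpiLC replicate 1 or 2 or SOX2-OFF replicate 2 or 3 (0.20 to 0.31, adjusted p 0.059 to 0.15). Library-size scaling (0.24, adjusted p = 0.075) and a fit of only the 6 libraries compared (0.29, adjusted p = 0.069) lost it too. Igf2r, the maternal receptor that clears IGF2, rose with CHIR99021 from 27.8 to 29.8 TPM in EpiLC to 43.7 to 47.2 in CEpiLC (0.66, SE 0.09, adjusted p = 5.7e-05) and was lower in SOX2-OFF (-0.55, SE 0.09, adjusted p = 0.00017) and SOX2-ON (-0.45, SE 0.09, adjusted p = 0.00061). Its antisense RNA Airn, which was not tested, was at 0 to 0.97 TPM in the wild type, 0.77 to 3.13 in SOX2-OFF and 0.51 to 1.63 in SOX2-ON. H13, signal peptide peptidase, gave 0.37 (adjusted p = 0.0027), -0.40 (adjusted p = 0.0013) and -0.49 (adjusted p = 0.00025) in the first 3 comparisons, and Gnas, the stimulatory G protein, -0.30 (adjusted p = 0.0012) and -0.36 (adjusted p = 0.00020) in the line comparisons. Zdbf2, at 43.5 to 106 TPM, was called in none of the 4, though CHIR99021 gave 0.55 (adjusted p = 0.022) without CEpiLC replicate 3.

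CEpiLC vs EpiLC and SOX2-ON vs SOX2-OFF share no library, so that the 2 can be set side by side. They do not separate CHIR99021 from SOX2, since Sox2 fell from 119 to 171 TPM in EpiLC to 7.78 to 13.7 in CEpiLC. Doxycycline differs in the second as well. Of the 19 imprinted genes called in the first and the 15 called in the second, 10 were called in both (52.6% and 66.7%), where all tested genes gave 2276 called in both (38.0% and 55.6%). The direction was the same for 4 of them, Cdkn1c, Peg10, Sgce and Plagl1, all higher in both. It was opposite for 6, as it was for 1717 of the 2276, so that opposite directions were common among all genes. Phlda2, Peg3 and Usp29 rose with CHIR99021 and were lower with SOX2 on, and Mest, Snrpn and Nnat fell with CHIR99021 and were higher with SOX2 on. Ddc, Grb10 and Peg12 had a large difference in SOX2-ON vs SOX2-OFF only, in the sense that CEpiLC vs EpiLC gave -0.36, -0.20 and 0.18 with no call. Magel2 and Dlk1 had a large difference in CEpiLC vs EpiLC only, against -0.34 and 0.56 in SOX2-ON vs SOX2-OFF. The difference between the 2 responses was not tested for any gene.

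**Figure D5:**
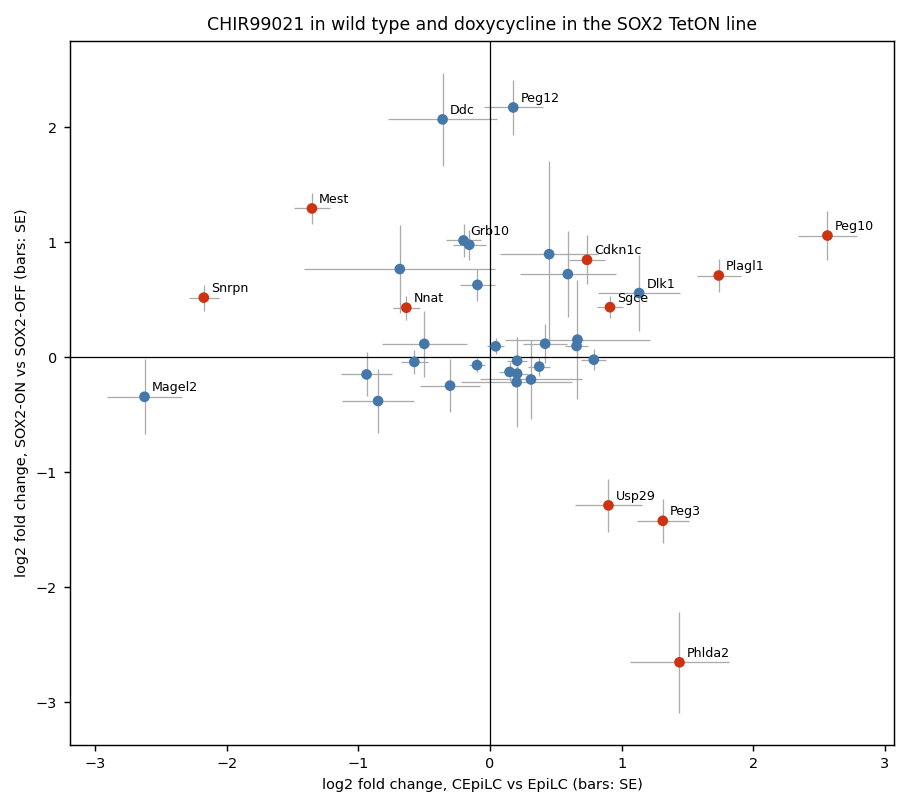
Log2 fold change of the 37 tested imprinted genes with CHIR99021 in wild-type cells (horizontal) and between SOX2-ON and SOX2-OFF (vertical), with standard errors; these comparisons use different libraries. Red genes passed the test in both, 4 of them in the upper right and 6 in the upper left or lower right.

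The proteins that write and keep imprints are given from a list of 17 genes, all tested. The list also holds Tet1, Tet2, Tet3 and Tdg, which take part in removing DNA methylation, so the counts below mix these roles. With CHIR99021, 0 rose, 8 fell and 9 were not called. Among those that fell was the de novo methyltransferase Dnmt3b, from a mean of 1354 TPM in EpiLC to 145 in CEpiLC (log2 fold change -3.22, SE 0.16, adjusted p = 1.2e-08). In SOX2-OFF vs CEpiLC 5 were higher and 1 lower, in SOX2-ON vs CEpiLC 10 and 3, and in SOX2-ON vs SOX2-OFF 5 and 3. The shares called were 47.1, 35.3, 76.5 and 47.1%, against 42.2, 48.5, 56.5 and 28.8% of all tested genes. Zfp57 was at 26.9 to 35.9 TPM in EpiLC, 30.5 to 43.5 in CEpiLC, 41.5 to 48.9 in SOX2-OFF and 22.8 to 29.6 in SOX2-ON. From EpiLC to CEpiLC, Dnmt1 overlapped (122.8 to 124.5 and 122.6 to 131.7 TPM), whereas Trim28 was lower in CEpiLC (628 to 633 and 503 to 540 TPM). Dnmt3l, the cofactor of imprint writing in germ cells, had a mean of 5.69 TPM in CEpiLC, 63.6 in SOX2-OFF (3.45, SE 0.17, adjusted p = 3.4e-08) and 79.4 in SOX2-ON (3.71, SE 0.17, adjusted p = 8.5e-09). Dppa3, which protects the maternal genome from demethylation after fertilisation, had a mean of 123 TPM in SOX2-ON against 6.26 in SOX2-OFF (4.16, SE 0.28, adjusted p = 4.3e-07), and differed from CEpiLC by 4.84 on the log2 scale (SE 0.29, adjusted p = 4.8e-08).

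A second list held 38 other imprinted genes, of which 26 were tested. CHIR99021 raised 3 and lowered 5 of them. In SOX2-OFF vs CEpiLC 8 were higher and 4 lower, in SOX2-ON vs CEpiLC 8 and 6, and in SOX2-ON vs SOX2-OFF 3 and 3. The shares called, 30.8, 46.2, 53.8 and 23.1%, were below the 42.2, 48.5, 56.5 and 28.8% of all tested genes in each comparison. The large changes in the line comparisons were those of Sfmbt2, a Polycomb-type protein (3.09 in SOX2-OFF and 2.84 in SOX2-ON, adjusted p = 5.9e-07 and 6.3e-07), Nespas, the antisense RNA of the Gnas locus (1.48 and 1.75, adjusted p = 0.00016 and 2.6e-05), and Calcr, the calcitonin receptor gene beside Peg10, in SOX2-ON (2.87, adjusted p = 5.1e-07). Calcr was also higher in SOX2-ON than in SOX2-OFF (2.31, adjusted p = 9.2e-06), where Slc38a4, an amino acid transporter, was lower (-1.66, adjusted p = 1.8e-05). With CHIR99021 the large changes were those of Calcr (-4.07, adjusted p = 3.1e-08), Slc22a3, an organic cation transporter (-2.81, adjusted p = 0.010), and Snurf (-2.17, adjusted p = 2.0e-08).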

How the data were processed

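Per the labels and the study's methods, the authors prepared strand-specific poly-A libraries, read single-end at 76 bp, trimmed them with cutadapt 1.16, aligned them with STAR 2.5.2a to mm10 and counted RefSeq genes with RSEM 1.3.0. The authors deposited expected counts and TPM for every library, with no pooling. Expected counts were rounded here. Of the members, 37 had whole counts in all libraries. TPM served for levels only.

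Of 24736 genes, 14196 passed filterByExpr and were tested by edgeR's quasi-likelihood test (edgeR 4.0.16, R 4.3.3) with TMM scaling, 1 model of all 12 libraries and Benjamini-Hochberg adjustment over all of them, with calls at adjusted p up to 0.05. All adjusted p values are from this fit unless another is named. Standard errors were derived from the F statistic. The study used DESeq2. The tests were tried on simulated data. The labels call the 3 libraries of a group biological replicates. Totals of 10408252 to 27337740 set the precision, and floors of 3 counts cover counting error only. Genes to name were those with a large change or a partner of the other allele with one at a mean of at least 1 TPM, and the rest are given by ranges. Promoters were chosen among those with a large change. Members and lists were chosen with earlier results of these data known. Same-numbered EpiLC and CEpiLC libraries deviated together across genes (r = 0.120, 0.132 and 0.103). The labels do not say that the numbers mark pairs, and the main fit has no pairing term. Alternatives were RLE or library-size scaling, 2 other filters, DESeq2 (1.42.0), limma-voom (3.58.1), 6-library fits, a replicate block, removal of each chromosome's median shift, and leaving out each replicate.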

Additional observations from a re-analysis of the deposited data

How the results depend on the processing

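The number of imprinted genes called in CEpiLC vs EpiLC, SOX2-OFF vs CEpiLC, SOX2-ON vs CEpiLC and SOX2-ON vs SOX2-OFF was 19, 24, 25 and 15, and it ran over 16 to 20, 21 to 23, 22 to 26 and 15 to 16 with each replicate left out. No alternative moved these counts, or those of all genes, by over 1.5 times. Of 83 calls, 14 were lost or turned under at least 1 alternative, and of 65 results without a call, 15 gained one. The direction turned with the chromosome shift removed for Sgce in SOX2-OFF vs CEpiLC (-0.36), and for Zrsr1 in SOX2-OFF (0.42) and SOX2-ON (0.30) vs CEpiLC, by the construction of that alternative.

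With the replicate number as a block the counts of imprinted genes were 20, 24, 26 and 15. Against the fit without it, the block added the call of Zrsr1 in CEpiLC vs EpiLC and that of Dlk1 in SOX2-ON vs CEpiLC (-0.69, adjusted p = 0.018), and changed no other call. In the 3 comparisons other than CEpiLC vs EpiLC the correlations of same-numbered libraries ran from 0.053 to 0.20. The labels do not say that the numbers pair samples, and the main fit pairs none. Of the tested members, counts were fewest for Slc22a18 (0 to 41 per library), Ascl2 (4 to 21), Ddc (4 to 81) and Zim1 (5 to 18), and Cdkn1c in SOX2-OFF rests on 15 to 22.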
